A study of Homo sapiens with 36 samples.

Results

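The 6 libraries described here are 3 of IRG1 KO cells and 3 of wild-type (WT) cells, all of the human monocytic leukaemia line THP-1 and all stimulated for 12 h. They are 6 of the 36 libraries of the study, and were taken by their titles, which give genotype, treatment, time and replicate. Both genotypes had first been exposed to 100 nM of the phorbol ester PMA for 72 h, which turns THP-1 monocytes into adherent macrophage-like cells, and then received 200 ng/mL LPS with 200 ng/mL interferon-gamma (IFN-γ). KO and WT libraries of the same 12 h given vehicle (3 and 3), and KO and WT libraries stimulated for 6 h or 24 h (3 and 3 at each time), were used to place the differences. The labels name neither the number of KO clones nor the change made in the gene, and do not say that the replicates were separate cultures, so the spread between replicates may in part be technical. Of the 21599 rows of the table, 21232 genes passed a floor on low values and were tested. All levels below are log2 normalised counts, and a change is the KO mean minus the WT mean on that scale, given with its standard error (SE).

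The gene called IRG1 in the labels is now named ACOD1. It encodes the mitochondrial enzyme that decarboxylates cis-aconitate, a tricarboxylic acid (TCA) cycle intermediate, to itaconate. Inflammatory macrophages induce the enzyme strongly after LPS and interferon. Itaconate is known to inhibit succinate dehydrogenase and to modify reactive cysteines, including those of KEAP1, the repressor of the transcription factor NRF2. LPS acts through TLR4 and NF-κB, and the common output of LPS and IFN-γ includes chemokines, cytokines, antigen-presentation genes and the antiviral interferon programme.

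The libraries did not fall equally close together. Within the KO group replicates 1 and 3 had a Pearson r across genes of 0.963, against 0.938 and 0.937 for the pairs with replicate 2, and the WT pairs lay between 0.921 and 0.944. Replicate 2 of both genotypes held the highest IL1B level of its group, 14.04 in KO and 15.12 in WT cells. Of 16 macrophage markers, 15 had a mean of at least 3.32 (log2 of 10) in each genotype when stimulated. Their average level was 8.52 to 8.86 in the KO libraries and 9.27 to 9.32 in the WT libraries, so the groups did not overlap, and LYZ and CD68 were called lower in KO cells. The markers did not all go the same way, since 5 of the 16 (CD36, FCGR1A, LAPTM5, CTSS and ITGAM) had a positive change, of 0.10 to 0.53, and none of these was called. Of 10 markers of undifferentiated myeloid precursors, averaging 5.92 to 6.17 in KO libraries and 5.57 to 5.90 in WT libraries, only FLT3 was called, higher in KO cells. KIT (2.31), CD34 (1.51), AZU1 (0.79), PRTN3 (0.56) and ELANE (0.32) had positive changes that were not called. CLEC5A (-2.45), MPO (-1.02), CTSG (-0.43) and MYB (-0.07) had negative changes, also not called, and the median of the 10 was 0.44. Of 17 markers of other cell types 11 were found, averaging 2.12 to 2.37 in KO and 2.46 to 2.80 in WT libraries. In KO cells 4 of the 11 had a mean of at least 3.32, against 2 in WT cells. Their levels in KO cells ran from CD3D, listed at 0.00 in all 3 libraries, to NKG7, at 5.64, 6.41 and 6.80. The part of cell state in the differences below was not tested, and in bulk RNA fewer cells of a type and less RNA per cell cannot be told apart.

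ACOD1 itself was lower in KO cells but was not absent from them. Its levels were 7.98, 10.22 and 8.49 in the 3 KO libraries, against 11.97, 11.80 and 11.00 in the 3 WT libraries. Every KO library lay below every WT library, and KO replicate 2 stood nearest to WT. The change was -2.69 ± 0.47 (SE), a 6.47-fold lower level (limma adjusted p 0.00087, n = 3 each). In vehicle-treated cells the levels were 0.03, 0.33 and 0.01 in KO and 0.43, 0.26 and 0.12 in WT libraries, so the stimulated KO levels lay far above those of both vehicle groups. At 6 h the stimulated KO libraries had 8.35, 8.31 and 8.80 and the WT libraries 12.76, 11.49 and 11.11, and at 24 h KO had 8.31, 9.78 and 8.60 and WT 10.95, 10.96 and 9.20. The changes at those times were -3.31 (adjusted p 3.7e-05) and -1.48 (adjusted p 0.060), and neither differed from the 12 h change past the threshold. With only the 6 libraries in the fit the call at 12 h was lost (adjusted p 0.074). These gene-level values do not hold the sequence of the transcript.

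Across all genes, 733 of 21232 (3.45%) were called at an adjusted p below 0.05 by limma with Benjamini-Hochberg adjustment, and 3559 had an unadjusted p below that value. Of the called genes 377 (1.78%) were higher and 356 (1.68%) lower in KO cells. The 3 KO and 3 WT values did not overlap for 714 of the 733, against 23.6% of all genes tested. The call rests on these same values, so the lack of overlap is not separate evidence. The median change was 1.86 among the higher genes and -2.01 among the lower ones, and 0.03 over all genes, whose median SE was 0.43. Changes of at least 4 on the log2 scale were found for 14 higher and 16 lower genes. Of the higher genes 182, and of the lower genes 151, had a mean under 3.32 in the group with the lower level, and these are given without a fold. With the replicate number as a block 1504 genes were called, 778 higher and 726 lower. Leaving out KO replicate 1 left 247 called, WT replicate 1 330, WT replicate 3 386 and KO replicate 3 391. With only the 6 libraries in the fit 100 genes were called, and of 90 called genes named below 59 missed the threshold there, with adjusted p values up to 0.17.

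**Figure D1:**
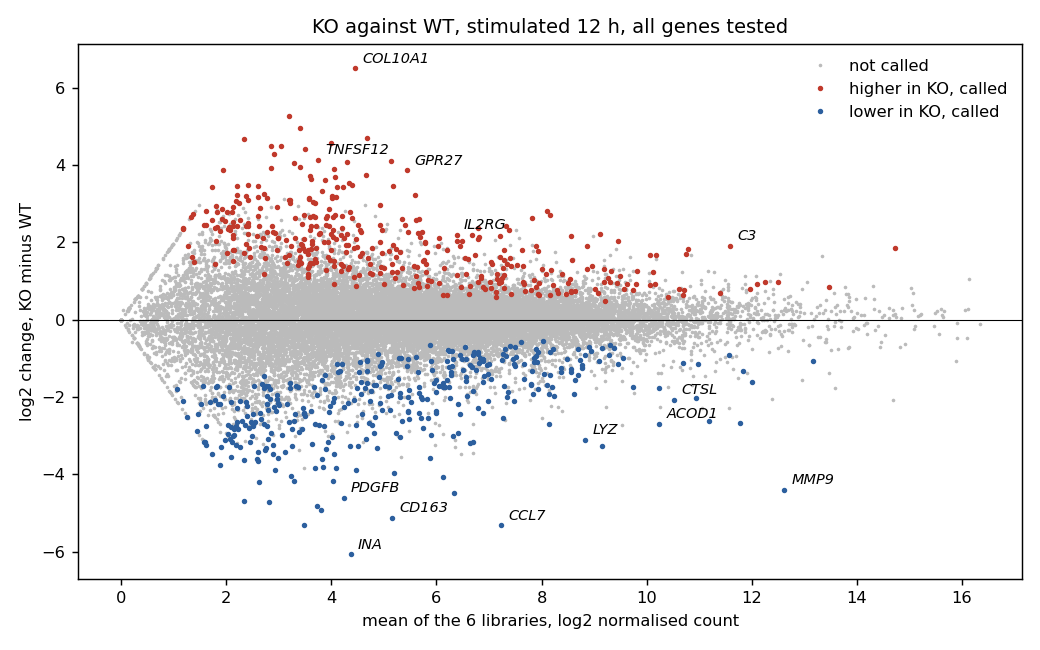
Each point is a gene, with the mean log2 normalised count of the 6 stimulated 12 h libraries on the x axis and the log2 change, KO minus WT, on the y axis. Red points are the called genes higher in KO cells and blue points those lower. MMP9 (-4.40), CCL7 (-5.32) and LYZ (-3.11) stand well below 0 at high levels, and C3 (1.92) above it.

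Among chemokines, 5 attractants of neutrophils, monocytes and lymphocytes were called lower in KO cells and none was called higher. CCL7, a monocyte chemoattractant also called MCP-3, had levels of 3.13, 6.04 and 4.55 in KO libraries against 9.28, 10.79 and 9.62 in WT libraries. The groups were far apart, with the highest KO library more than 3 log2 units under the lowest WT library. The change was -5.32 ± 0.63, or 40.0-fold lower (adjusted p 5e-06), and the call held under every setting run. CCL13 (MCP-4) fell by 2.94 (4.03, 6.19 and 4.63 in KO, 7.67, 8.73 and 7.26 in WT, 7.67-fold) and CCL18, a lymphocyte attractant made by alternatively activated macrophages, fell by 2.58. CCL8 (MCP-2) was 12.44, 14.67 and 13.84 in KO and 16.12, 15.71 and 15.37 in WT libraries, a change of -2.08 ± 0.76 that was not called (adjusted p 0.13). Of the 21 CC and other chemokines 3 were called lower and none higher, or 14.3% against 3.45% of all genes tested. The median change of the 21 was -1.18 against 0.03 over all genes.

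The neutrophil-attracting CXC chemokines, ligands of CXCR1 and CXCR2, all had a negative change. The median of the 7 was -1.78, and 2 were called, or 28.6% against 3.45% of all genes tested. In vehicle-treated cells 6 of the 7 were called lower and none higher (85.7%, against 5.24% of all genes tested), with a median of -3.15. The genotype by stimulation interaction, the stimulated change minus the vehicle change, was positive for all 7 and called for 1. When stimulated, CXCL3 had levels of 5.79, 6.68 and 6.53 in KO libraries and 8.41, 9.00 and 7.60 in WT libraries, without overlap, and fell 4.01-fold (adjusted p 0.015). PPBP, the precursor of platelet basic protein, fell as well, with 0.60, 0.39 and -0.07 in KO and 3.88, 5.87 and 1.84 in WT libraries (adjusted p 0.047). CXCL8 was 10.47, 12.04 and 11.54 in KO and 13.41, 14.14 and 12.69 in WT libraries, apart in all 6 but not called (-2.06 ± 0.68, adjusted p 0.092). Of the 3 interferon-induced CXCR3 ligands, which attract T cells, 2 were called lower in KO cells under vehicle and none higher (66.7%, median -2.24). In stimulated cells they showed no called change, with a CXCL10 level of 15.66, 15.90 and 15.50 in KO and 15.76, 15.60 and 15.45 in WT libraries. CXCL9 was at 16.75, 16.75 and 16.47 in KO and 15.37, 16.05 and 15.41 in WT libraries (1.05 ± 0.40, adjusted p 0.15). Since 16.75 is the highest value of the table, the CXCL9 level in KO cells may be understated. Several of these calls rested on single libraries. Leaving out KO replicate 1 raised the adjusted p to 0.12 for CXCL3, 0.13 for PPBP, 0.12 for CCL18 and 0.054 for CCL13. Leaving out WT replicate 1 gave 0.067 for CXCL3 and 0.14 for PPBP, WT replicate 2 gave 0.070 and 0.19, and KO replicate 2 or 3 gave 0.076 or 0.15 for PPBP. With a pseudocount of 5 the PPBP change was -1.82 (adjusted p 0.0994), against -3.56 without it. CCL18 had 0.11 without WT replicate 3 and 0.071 without KO replicate 3. CXCL3 (0.0639), CCL13 (0.0685) and CCL18 (0.0595) missed the threshold with only the 6 libraries in the fit.

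The 250 bases before the start of 3 of these chemokine genes and of the cytokine gene IL11, all called lower in KO cells, are shown as the windows in which motifs of the transcription factors downstream of LPS and IFN-γ were searched (RefSeq, GRCh38.p14, on the strand of the gene). Capitals mark each match to a searched motif. All of the windows shown hold a match, which was not so for every gene called lower.
CCL7 (chr17:34269971-34270220, plus strand): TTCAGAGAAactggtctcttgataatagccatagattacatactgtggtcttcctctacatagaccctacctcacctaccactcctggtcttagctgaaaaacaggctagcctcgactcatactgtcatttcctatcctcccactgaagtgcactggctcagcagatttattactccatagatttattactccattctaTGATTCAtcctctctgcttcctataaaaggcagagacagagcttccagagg
CCL13 (chr17:34356230-34356479, plus strand): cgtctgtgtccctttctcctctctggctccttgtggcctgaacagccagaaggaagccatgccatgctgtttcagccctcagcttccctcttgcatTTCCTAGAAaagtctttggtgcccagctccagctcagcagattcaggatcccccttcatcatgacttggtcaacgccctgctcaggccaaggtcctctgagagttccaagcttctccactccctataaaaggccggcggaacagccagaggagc
CXCL3 (chr4:74038690-74038939, minus strand): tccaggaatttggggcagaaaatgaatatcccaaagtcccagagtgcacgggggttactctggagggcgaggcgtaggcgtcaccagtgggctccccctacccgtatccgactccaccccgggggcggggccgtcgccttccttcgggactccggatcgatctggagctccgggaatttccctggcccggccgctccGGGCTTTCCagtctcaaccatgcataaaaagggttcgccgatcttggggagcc
IL11 (chr19:55370464-55370713, minus strand): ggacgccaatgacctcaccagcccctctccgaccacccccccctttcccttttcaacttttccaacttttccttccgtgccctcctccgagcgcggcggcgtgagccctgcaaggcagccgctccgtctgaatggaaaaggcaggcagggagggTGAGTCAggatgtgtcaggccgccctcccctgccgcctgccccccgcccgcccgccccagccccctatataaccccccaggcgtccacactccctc

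CXCL3 held a match to the NF-κB-type motif GGGNNTTCC, and CCL13 one to the GAS (interferon-γ activated sequence) motif TTCNNNGAA. CCL7 held one to GAS and one to the AP-1 motif TGANTCA, and IL11 one to AP-1. AP-1 matches were found in 11.5% of the 253 genes called lower and 5.75% of the 261 called higher, against 6.62% of all 13736 tested genes with a promoter window in the reference. The motif TGATGNAA (CARE), bound by ATF4, was found in 6.72% of the genes called lower, 2.68% of those called higher and 2.61% of all. GAS matches were in 11.5% of lower, 9.58% of higher and 7.72% of all windows, and NF-κB matches in 7.11% of lower, 7.66% of higher and 8.91% of all. The interferon-stimulated response element (ISRE) was in 1.98% of lower and 3.45% of higher windows against 3.59% of all. For the NRF2-type motif TGACNNNGC the shares in lower, higher and all windows were 16.6%, 14.9% and 15.2%. For the SREBP-type motif they were 1.58%, 0.766% and 0.546%. Both strands were searched, the AP-1 letters can overlap those of the NRF2-type motif, and the AP-1 motif was added after values had been seen. Only the exact letters of each motif were searched, so related sequences, such as gggaatttcc in the CXCL3 window, stay unmarked and uncounted. A match describes letters, and these shares were not tested. Windows of other genes called lower were searched and are not shown. That of ACOD1 held no match, that of PPBP only an SREBP-type match and that of CTSL only an NRF2-type match. PLAU had NRF2-type and SREBP-type matches in 1 window and none in the other. IL1R2 had an NF-κB match in 1 window and none in the other. CD163 held ISRE, NRF2-type and SREBP-type matches.

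Cytokines and growth factors divided into a large set without a called change and a few that were strongly lower. None of TNF, IL6, IL1B, IL10, IL12B, IFNB1 or HMOX1 was called, with changes of -0.51 ± 0.44, 0.69 ± 0.63, -1.37 ± 1.24, -0.59 ± 0.69, -1.68 ± 1.15, -1.65 ± 1.04 and -0.71 ± 0.44. The IL1B error was 0.82 with a replicate block and 0.32 with that block and only the 6 libraries in the fit (adjusted p 0.358 and 0.0533). IL12B shows the spread behind these errors, with 2.74, 8.10 and 2.96 in KO and 6.35, 7.60 and 4.88 in WT libraries. With library weights in the fit, a setting that called 3589 genes in all, IL12B was called lower (-2.67, limma adjusted p 0.032). Of 27 proinflammatory cytokines 3 were called lower and none higher, or 11.1% against 3.45% of all genes tested (median change -0.40). The 3 were OSM, an IL-6 family cytokine, CSF3, the granulocyte colony-stimulating factor, and IL15. OSM was 0.24, 4.91 and 1.79 in KO and 5.86, 5.48 and 6.02 in WT libraries, again with KO replicate 2 close to WT. IL11, another IL-6 family member, was 0.20, 2.43 and 0.29 in KO and 6.01, 4.56 and 4.02 in WT libraries (-3.89 ± 0.70, adjusted p 0.0012). PDGFB, a platelet-derived growth factor chain, was 1.28, 3.09 and 1.42 in KO and 6.64, 5.73 and 7.24 in WT libraries (-4.61 ± 0.47, adjusted p 7.7e-07), a call kept under every setting. EREG, an EGF receptor ligand, fell by 4.05, and IL1R2, the decoy receptor for IL-1, by 3.58, the one called of 16 anti-inflammatory mediators (median -0.20). Among 27 cytokine and chemokine receptors (median -0.35), IL2RA (-2.67) and CSF2RA (-2.11) fell. In the same list IL2RG, the common γ chain, rose 4.59-fold, with 8.12, 6.70 and 7.62 in KO and 5.42, 5.25 and 5.18 in WT libraries, and CX3CR1, the fractalkine receptor, rose by 2.32.

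Among these cytokine and receptor calls, PDGFB, IL2RG, IL2RA and IL11 held without each library in turn. IL2RA (adjusted p 0.0944) and IL11 (0.0801) missed the threshold with only the 6 libraries in the fit, and EREG with a pseudocount of 5 (-2.46, adjusted p 0.0545). Leaving out KO replicate 1 gave an adjusted p of 0.18 for OSM, 0.23 for CSF3, 0.25 for IL15, 0.19 for EREG, 0.12 for IL1R2, 0.060 for CSF2RA and 0.11 for CX3CR1. WT replicate 1 left out gave 0.058 for OSM, 0.12 for CSF3, 0.11 for IL15, 0.15 for EREG, 0.087 for IL1R2 and 0.13 for CX3CR1. KO replicate 3 left out gave 0.074 for OSM, 0.17 for CSF3, 0.14 for IL15, 0.15 for EREG and 0.079 for IL1R2. WT replicate 3 left out gave 0.059 for OSM, 0.062 for CSF3, 0.15 for IL15, 0.051 for CSF2RA and 0.10 for CX3CR1. WT replicate 2 mattered for CSF3 (0.070) and EREG (0.095), and KO replicate 2 for CX3CR1 (0.090).

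In stimulated cells none of 47 interferon-stimulated antiviral genes was called, against 3.45% of all genes tested, a share at which a list of this size would hold few calls. Their median change was -0.07, and the lowest was that of ZBP1, a sensor of left-handed nucleic acid (-1.66, adjusted p 0.096). In vehicle-treated cells of the same time, where 1112 genes (5.24%) were called, 13 of the 47 were called lower in KO cells and their median change was -1.22. The genotype by stimulation interaction was positive for 45 of the 47 but was called for none. The 9 interferon regulatory factors, 21 class I antigen-presentation genes and 15 tested genes of cytosolic nucleic acid sensing likewise had no member called, with medians of 0.03, -0.09 and 0.00. Among 15 interferon-γ GTPases only GBP7 was called, lower in KO cells (4.47, 4.49 and 5.16 against 7.15, 5.61 and 7.51 in WT). Of 8 interferons and interferon receptors (median -0.32) IFNLR1, the ligand-binding chain of the interferon-lambda receptor, rose, with 4.65, 4.65 and 3.98 in KO and 1.33, 2.22 and 0.99 in WT libraries (2.92 ± 0.58, adjusted p 0.0030). Of 23 JAK-STAT and SOCS genes 1 was called, the kinase gene TYK2, at 9.87, 9.15 and 9.24 in KO and 8.99, 8.49 and 8.39 in WT libraries. The GBP7 call was lost without WT replicate 1 (adjusted p 0.089), WT replicate 3 (0.10) or KO replicate 1 (0.081), and the TYK2 call without KO replicate 1 (0.19), WT replicate 2 (0.052) or WT replicate 3 (0.10).

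Class II antigen presentation, complement and costimulatory ligands had members called higher in KO cells and none called lower. The shares called were 11.1% of class II genes, 21.1% of complement components and 14.3% of costimulatory ligands, against 3.45% of all genes tested. Of 18 class II genes 16 had a positive change, with a median of 1.04, and 2 were called. HLA-DOA, a chain of the HLA-DO regulator of peptide loading, was 4.76, 4.83 and 4.47 in KO and 0.90, 3.35 and 2.37 in WT libraries (2.47 ± 0.55). RFX5, a subunit of the factor that binds class II promoters, was 8.44, 8.20 and 8.30 in KO and 7.47, 7.54 and 7.39 in WT libraries (0.85 ± 0.20, 1.80-fold). CIITA, the class II transactivator, stood at 7.40, 7.22 and 7.03 in KO and 5.05, 5.90 and 5.83 in WT libraries, and HLA-DRA at 10.38, 10.55 and 10.51 in KO and 8.25, 9.35 and 9.00 in WT libraries. These 2 genes also did not overlap between groups but missed the threshold (CIITA 1.62 ± 0.53, adjusted p 0.085, and HLA-DRA 1.61 ± 0.60, adjusted p 0.15). In vehicle-treated cells the class II median was -0.78 with none of 18 called, and none of the 18 interactions was called. Without WT replicate 1 the adjusted p of HLA-DOA was 0.11, and without KO replicate 1 it was 0.051, while RFX5 had 0.081 without KO replicate 1 and 0.055 without WT replicate 3.

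Among 19 complement components 4 entries rose and none fell, at a list median of 0.14. C4A and C4B are among the 4 and count as 1 signal, for the reason given below. C3, the central component, was 12.48, 12.66 and 12.51 in KO and 10.26, 11.39 and 10.25 in WT libraries, a 3.77-fold higher level (1.92 ± 0.41, adjusted p 0.0059). C4A was 8.23, 8.07 and 8.05 in KO and 6.92, 6.18 and 7.10 in WT libraries, and rose 2.60-fold (adjusted p 0.0016). C4B rose 2.54-fold, but C4A, C4B and C4B_2 are near-identical copies whose reads cannot be assigned apart with certainty, so they count as 1 signal. With only the 6 libraries in the fit C3 (adjusted p 0.0518), C4A (0.0611) and C4B (0.064) missed the threshold. SERPING1, the C1 inhibitor, rose 2.10-fold, a call lost without any one library except WT replicate 2 (adjusted p 0.065 to 0.19). Of 14 costimulatory ligands TNFSF4 (OX40 ligand, 2.63) and ICOSLG (1.61) rose and none fell. TNFSF4 missed the threshold without WT replicate 1 (0.11), KO replicate 1 (0.098) or WT replicate 3 (0.080), and ICOSLG without WT replicate 1 (0.11), KO replicate 1 (0.19) or KO replicate 3 (0.093).

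**Figure D2:**
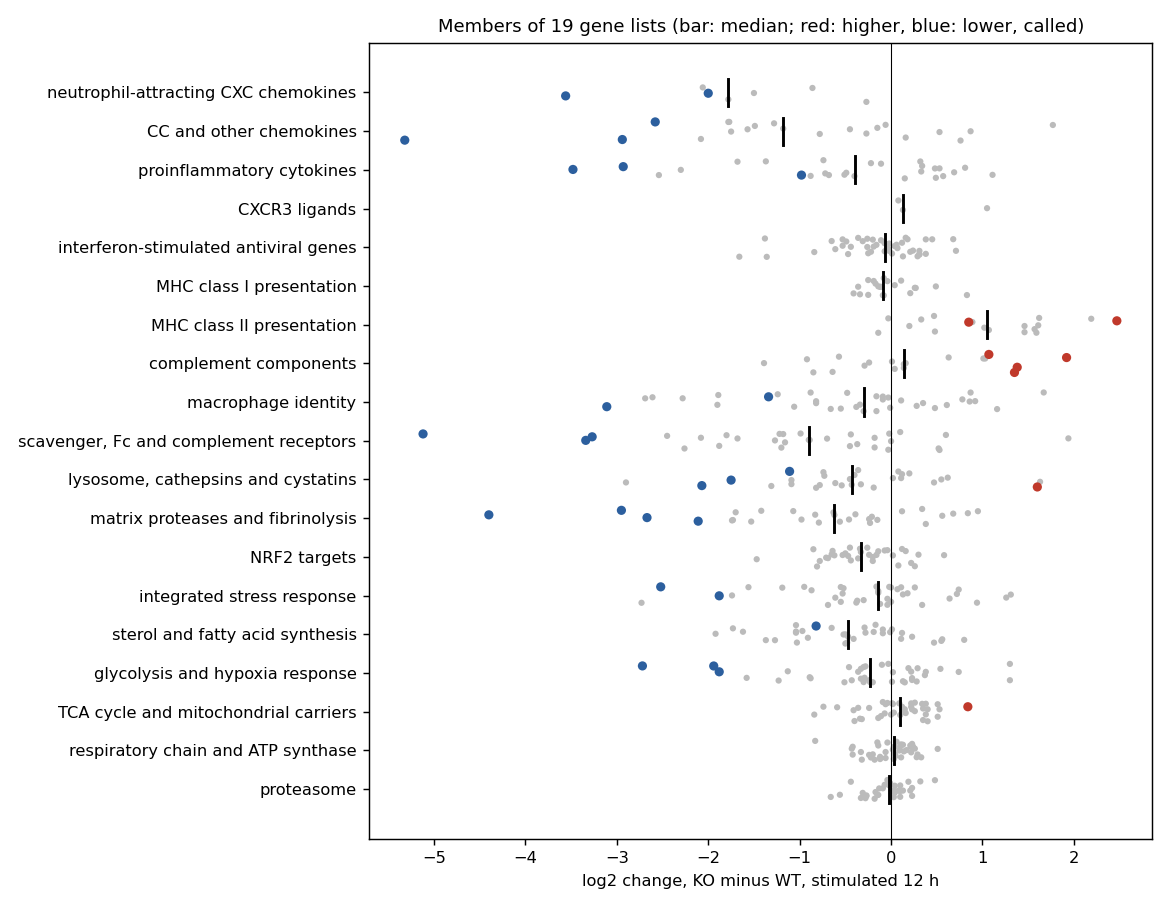
Each point is a member of 1 of 19 gene lists, placed by its log2 change, KO minus WT, in cells stimulated for 12 h, and the black bar is the median of the list. Red and blue points passed the test. The neutrophil-attracting chemokines (median -1.78) lie left of 0 and the class II genes (median 1.04) right of it, while antiviral, class I, respiratory chain and proteasome genes have medians near 0 with none called.

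Several surface and secreted products of differentiated macrophages were lower in KO cells. CD163, the haptoglobin-haemoglobin scavenger receptor, was 2.19, 3.70 and 1.89 in KO and 8.78, 7.18 and 7.17 in WT libraries (-5.12 ± 0.71, adjusted p 6.9e-05). LYZ, lysozyme, was 7.43, 7.29 and 7.11 in KO and 10.65, 10.82 and 9.69 in WT libraries, 8.64-fold lower (adjusted p 0.00059). MMP9, a gelatinase released by macrophages and neutrophils, was 9.45, 11.67 and 10.14 in KO and 15.83, 13.96 and 14.67 in WT libraries, 21.1-fold lower (-4.40 ± 0.85, adjusted p 0.0023). None of the 3 genes overlapped between groups, all were called under every setting, and all had a like change in vehicle-treated cells of -5.58, -3.69 and -4.17. Of 31 scavenger, Fc and complement receptors 26 had a negative change (median -0.90) and 3 were called, CD163, TREM1 (an amplifier of inflammatory signals, -3.34) and VSIG4 (a complement receptor of resident macrophages, -3.27). Of 35 macrophage identity genes (median -0.30) LYZ and CD68 (10.90, 11.44 and 11.18 in KO, 12.56, 12.11 and 12.86 in WT, 2.53-fold) were lower. Among 29 matrix protease and fibrinolysis genes 4 fell and none rose, or 13.8% against 3.45% of all genes tested (median -0.62). The 4 were MMP9, THBD (thrombomodulin), PLAU (urokinase) and SERPINB2, an inhibitor of urokinase. THBD was 9.62, 11.60 and 10.09 in KO and 13.46, 12.96 and 12.88 in WT libraries (6.35-fold lower, adjusted p 0.00076).

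The lysosomal list of 29 genes had 3 members called lower and 1 higher. The cysteine proteases CTSL and CTSB fell, CTSL to 8.77, 10.51 and 9.19 in KO against 11.60, 11.50 and 11.60 in WT libraries (4.21-fold, adjusted p 0.00039), and CTSB to 8.36, 9.25 and 8.96 in KO against 10.90, 10.12 and 10.81 in WT libraries (3.37-fold). GLA, α-galactosidase, fell 2.16-fold. TFEB, a transcription factor that drives lysosomal genes, rose 3.03-fold, at 8.40, 8.35 and 7.87 in KO and 6.30, 6.50 and 7.02 in WT libraries. Calls of CD163, LYZ, MMP9, THBD, CTSL and CTSB held without each library in turn, but with only the 6 libraries in the fit THBD (adjusted p 0.0581), CTSL (0.0642) and CTSB (0.0535) missed the threshold. Leaving out WT replicate 1 gave adjusted p values of 0.072 for CD68, 0.10 for VSIG4, 0.26 for SERPINB2, 0.064 for GLA and 0.051 for TFEB. KO replicate 1 left out gave 0.12 for CD68, 0.20 for TREM1, 0.17 for SERPINB2, 0.066 for PLAU, 0.14 for GLA and 0.051 for TFEB. WT replicate 3 left out gave 0.10 for CD68, 0.12 for TREM1, 0.11 for VSIG4 and 0.085 for GLA. KO replicate 3 mattered for CD68 (0.057) and SERPINB2 (0.13), WT replicate 2 for SERPINB2 (0.098), and KO replicate 2 for VSIG4 (0.053) and SERPINB2 (0.060). With a pseudocount of 5 SERPINB2 had a change of -1.47 (adjusted p 0.0773), against -2.95 without it.

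**Figure D3:**
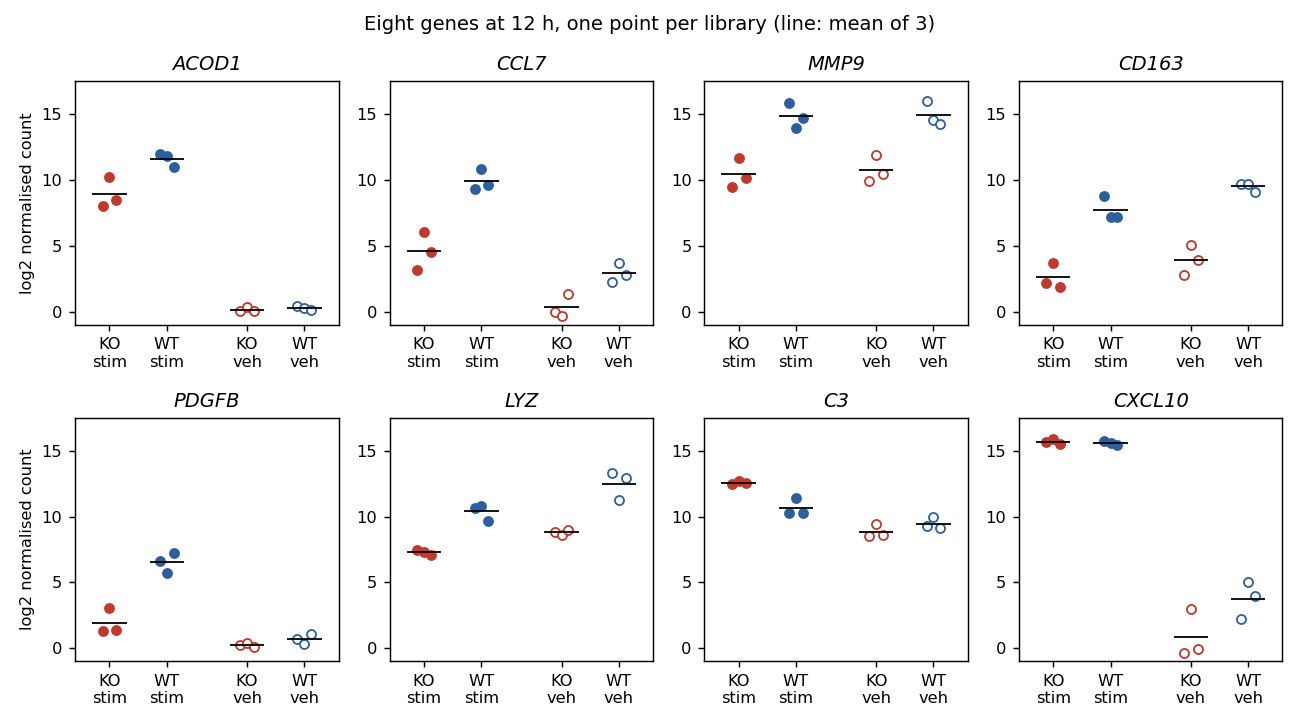
Each point is 1 library at 12 h, with the log2 normalised count on the y axis, KO left of WT, filled points for stimulated and open points for vehicle-treated cells, and a line at the mean of 3. CD163, LYZ and MMP9 are lower in KO cells under both treatments, ACOD1 and PDGFB differ among stimulated cells and lie near 0 under vehicle, C3 is higher in stimulated KO cells, and CXCL10 is level between genotypes when stimulated.

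Of 30 NF-κB subunits, feedback genes and targets 3 were called, all targets and all lower: PLAU, IER3 (an anti-apoptotic early response gene) and SOD2, the mitochondrial superoxide dismutase. That is 10.0% of the list, against 3.45% of all genes tested. SOD2 was 12.41, 12.60 and 12.86 in KO and 13.98, 13.12 and 13.96 in WT libraries (2.09-fold). Of 35 Toll-like receptor, adaptor and IRAK genes only LBP, the LPS-binding protein, was called (-2.75), and of 22 inflammasome and pyroptosis genes only GSDME, a pore-forming gasdermin (-1.73, 3.32-fold). None of 11 MAP kinase phosphatases was called. In the AP-1, EGR and NR4A list of 27, FOSL1 and FOSL2, both FOS-related AP-1 subunits, fell. FOSL1 was 5.07, 5.52 and 5.35 in KO and 7.59, 7.24 and 7.67 in WT libraries (4.55-fold, adjusted p 0.011), and FOSL2 7.72, 7.89 and 7.64 in KO and 9.23, 8.31 and 9.44 in WT libraries (2.37-fold, adjusted p 0.013). FOSL1 had an adjusted p of 0.054 without WT replicate 1, 0.074 without KO replicate 1 and 0.053 without WT replicate 3. FOSL2 had 0.088, 0.066 and 0.10 without those libraries and 0.062 without KO replicate 3. SOD2 lost its call without any one library except WT replicate 2 (0.063 to 0.20), IER3 without KO replicate 1 (0.086) or KO replicate 3 (0.052), LBP without KO replicate 1 (0.089), and GSDME without KO replicate 1 (0.073) or WT replicate 3 (0.069).

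In the itaconate list of 12 tested genes ACOD1 was the one called, and of 41 TCA cycle and carrier genes only GOT2, the mitochondrial aspartate aminotransferase, rose (7.33, 7.18 and 7.44 in KO, 6.20, 6.84 and 6.38 in WT, 0.84 ± 0.22). None of 42 respiratory chain and ATP synthase genes was called (median 0.03), nor any of 33 tested NRF2 targets, of which 25 had a negative change (median -0.33). Of 39 glycolysis and hypoxia genes 3 fell (median -0.23), or 7.69% against 3.45% of all genes tested. ENO2, a neuronal-type enolase, was 3.58, 3.01 and 2.73 in KO and 5.61, 5.90 and 5.97 in WT libraries (-2.72 ± 0.40, adjusted p 0.00011), HK3, a myeloid hexokinase, fell by 1.94, and ADM, adrenomedullin, fell 3.67-fold. In the integrated stress response list of 38, PHGDH, which starts serine synthesis, was 3.34, 3.63 and 3.73 in KO and 6.53, 5.61 and 6.13 in WT libraries (5.75-fold lower), and PCK2, mitochondrial PEP carboxykinase, was 3.67-fold lower. Of 34 sterol and fatty acid synthesis genes 26 had a negative change (median -0.48) but only ACSS2, cytosolic acetyl-CoA synthetase, was called (1.77-fold lower). SCD, the stearoyl-CoA desaturase, was 6.11, 7.25 and 6.04 in KO and 7.94, 9.01 and 7.65 in WT libraries and just missed the threshold (-1.73 ± 0.51, adjusted p 0.054). PTGES, the inducible prostaglandin E synthase, was the one called eicosanoid gene of 17, at 3.13, 4.46 and 1.05 in KO and 6.18, 6.18 and 6.08 in WT libraries.

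ENO2 was called without each library in turn. For the other metabolic calls the adjusted p without WT replicate 1 was 0.18 for GOT2, 0.079 for HK3, 0.11 for ADM, 0.15 for PHGDH and 0.086 for PCK2. Without KO replicate 1 it was 0.12 for GOT2, 0.060 for ADM, 0.14 for PHGDH, 0.12 for PCK2 and 0.12 for ACSS2. Without WT replicate 3 it was 0.11 for GOT2, 0.085 for ADM, 0.096 for PHGDH and 0.063 for ACSS2. Without KO replicate 3 it was 0.13 for GOT2, 0.082 for PHGDH, 0.12 for PCK2 and 0.11 for PTGES, while WT replicate 2 mattered for PCK2 (0.070) and KO replicate 2 for PHGDH (0.056). A pseudocount of 5 ended the calls of HK3 (-1.18, adjusted p 0.0562) and PHGDH (-2.12, adjusted p 0.0653). The lists of LXR targets (24 genes, median -0.40), tryptophan, arginine and polyamine metabolism (23, -0.08) and iron and metal handling (20, -0.28) had no member called, and in that of 14 tested reactive oxygen enzymes SOD2 was the one called (median -0.06).

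None of 34 proteasome genes (median -0.03) or 55 deubiquitinases (median 0.13) was called. Of 44 ubiquitin, E1 and E2 genes 1 was, UBE2D1, at 6.54, 6.36 and 6.24 in KO and 7.37, 7.37 and 7.44 in WT libraries (2.02-fold lower), and of 65 ubiquitin ligases 1 was, CBLB, which restrains receptor signalling (3.35-fold lower). BAG3, a co-chaperone of HSP70, was the one called of 22 heat shock and folding genes, at 6.43, 6.19 and 6.42 in KO and 7.36, 7.24 and 7.66 in WT libraries (2.10-fold lower, adjusted p 0.0011). Of 36 cell cycle genes CCND2, a D-type cyclin, fell by 2.14. Of 27 apoptosis regulators the TRAIL receptors TNFRSF10A (4.04-fold) and TNFRSF10D (3.11-fold) fell and BMF, a BH3-only protein, rose 4.12-fold. Of 26 adhesion genes CD9, a tetraspanin (3.35-fold), and SELPLG, the P-selectin ligand (2.98-fold), fell. In the list of 18 precursor markers FLT3 (1.73) rose, and among 9 tested markers of other cell types COL1A1 fell, with 4.16, 3.19 and 3.96 in KO and 6.72, 5.74 and 7.64 in WT libraries.

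BAG3 and COL1A1 kept their calls without each library in turn, but not with only the 6 libraries in the fit (adjusted p 0.0596 and 0.0531). UBE2D1 lost its call without KO replicate 3 (adjusted p 0.055), CCND2 without WT replicate 1 (0.059), and CBLB without WT replicate 1 (0.088) or KO replicate 1 (0.074). BMF lost it without WT replicate 1 (0.076), KO replicate 1 (0.11), WT replicate 3 (0.088) or KO replicate 3 (0.069), as did TNFRSF10A (0.095, 0.12, 0.071 and 0.13). TNFRSF10D, SELPLG and FLT3 lost theirs without nearly any single library: TNFRSF10D had 0.062 to 0.21 without each but KO replicate 2, SELPLG 0.078 to 0.26 without each but KO replicate 2, and FLT3 0.060 to 0.27 without each but WT replicate 2. CD9 had 0.12 without WT replicate 1, 0.14 without WT replicate 3 and 0.15 without KO replicate 3.

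The largest rises were in genes of varied function outside the lists. COL10A1, the collagen of hypertrophic cartilage, was 8.57, 8.00 and 6.55 in KO and 0.88, 1.63 and 1.11 in WT libraries (6.50 ± 0.90, adjusted p 6.6e-05). NTS, the precursor of the peptide neurotensin, was 7.19, 3.75 and 6.74 in KO and 0.24, -0.05 and 2.58 in WT libraries (4.97 ± 0.86). GPR27, an orphan receptor, rose 14.5-fold, with 7.61, 6.82 and 7.70 in KO and 2.89, 3.88 and 3.78 in WT libraries. All 15 of the largest rises were free of overlap by the rule that chose them, and from the fourth to the last they were LINC03082, CXorf49B, CSMD3, CXorf49, TNFSF12, LRRC4, SMIM32, TGM5, PRICKLE2, GPRC5B, GPR27 and HS6ST2, after COL10A1, NTS and the kinase scaffold KSR2, with changes of 4.56 down to 3.73. CXorf49 and CXorf49B are near-identical copies and TNFSF12, the ligand TWEAK, overlaps the readthrough gene TNFSF12-TNFSF13, so their separate values are uncertain. Of these 15, only SMIM32 lost its call when a library was left out (0.15 without WT replicate 1, 0.17 without KO replicate 1 and 0.084 without KO replicate 3). With only the 6 libraries in the fit it was lost too (0.078), as were NTS (0.0798), PRICKLE2 (0.0535), GPRC5B (0.0578) and HS6ST2 (0.0581).

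The largest falls mixed immune and non-immune genes. INA, the neuronal filament α-internexin, was 0.27, 2.02 and 1.71 in KO and 7.13, 8.29 and 6.81 in WT libraries (-6.07 ± 0.84). MAGED1, a MAGE family adaptor, was 0.50, 0.62 and 0.23 in KO and 4.87, 5.21 and 5.39 in WT libraries (-4.71 ± 0.33, adjusted p 4.3e-10), and TNNT1, slow skeletal troponin T, was 1.02, 1.63 and 1.28 in KO and 5.77, 6.21 and 6.42 in WT libraries (-4.83 ± 0.43, adjusted p 3.7e-08). MAGED1 and TNNT1 had the tightest replicates of the 15. GFPT2, an enzyme of the hexosamine pathway, fell 22.3-fold, with 3.34, 5.57 and 3.37 in KO and 9.46, 7.49 and 8.77 in WT libraries. The others were CCL7, CD163, PDGFB, MMP9, EREG and IL11, described above, the thrombin receptor F2RL2 (-4.92), PPP1R27 (-4.08), the amino acid transporter SLC16A10 (-3.96), the homeobox gene NKX2-2 (-3.89) and LINC01615 (-3.83). F2RL2 missed the threshold without KO replicate 1 (0.12) or KO replicate 3 (0.097), PPP1R27 without WT replicate 1 (0.054), and LINC01615 without KO replicate 1 (0.072) or WT replicate 3 (0.056). With only the 6 libraries in the fit these 3 and EREG, SLC16A10 and IL11 were not called (0.0518 to 0.114).

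Part of the genotype difference was also present without stimulation. In vehicle-treated cells of 12 h, from other libraries, 616 genes were called higher (2.90%) and 496 lower (2.34%) in KO cells. Of the 377 genes higher in stimulated KO cells 114 (30.2%, or 18.5% of those called there) were also called higher under vehicle, and of the 356 lower genes 106 (29.8%, or 21.4%) were also called lower. A positive vehicle change was seen for 338 of the 377 and a negative one for 330 of the 356. MAGED1 was 0.09, 0.66 and 0.52 in KO and 5.83, 5.55 and 5.90 in WT libraries under vehicle, and COL10A1 9.00, 9.14 and 5.76 in KO and 2.23, 1.98 and 0.58 in WT libraries, so the direction was the same without stimulation.

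A difference between the genotype changes with and without stimulation was called for 34 genes (0.16%), 13 (0.0612%) with a more positive and 21 (0.0989%) with a more negative change in stimulated cells, and 1501 had an unadjusted p below 0.05. Of the 34, 13 were called in stimulated cells, 23 in vehicle-treated cells and 2 in both. PDGFB was called in stimulated and not in vehicle-treated cells, at 0.21, 0.43 and 0.06 in KO and 0.67, 0.30 and 1.10 in WT libraries under vehicle, against the levels given above when stimulated (interaction -4.15 ± 0.67, adjusted p 0.0080). CXCL1, a neutrophil attractant, was called under vehicle and not in stimulated cells, at 1.28, 1.42 and 0.80 in KO and 5.24, 4.46 and 4.82 in WT libraries, while stimulated cells had 8.43, 9.11 and 9.20 in KO and 9.71, 10.61 and 9.00 in WT libraries (interaction 2.81 ± 0.58, adjusted p 0.035). With a pseudocount of 5 the CXCL1 interaction was 1.36 (adjusted p 0.375), and with only genes at or above the median level its adjusted p was 0.118. PMFBP1 was likewise called under vehicle alone (interaction 3.12, adjusted p 0.0080). C4A and C4B_2 had interactions of 1.87 and 1.95, with vehicle levels of C4A of 3.13, 2.76 and 2.49 in KO and 3.10, 3.43 and 3.33 in WT libraries. ACOD1, near 0 under vehicle, had an interaction of -2.55 ± 0.67 that was not called (adjusted p 0.13). Leaving out 1 library gave 4 interactions (without WT vehicle replicate 3) to 83 (without KO vehicle replicate 2), and only without stimulated KO replicate 2 did the count stay at 34. With a replicate block 115 interactions were called, and with only genes at or above the median level none was. With only the 12 libraries in the fit PDGFB (adjusted p 0.173), PMFBP1 (0.229) and CXCL1 (0.149) missed the threshold, and with the replicate block added to it they had 0.112, 0.117 and 0.0855. PDGFB and PMFBP1 kept their interaction calls without each of the 12 libraries in turn, and CXCL1 only without WT vehicle replicate 2, KO vehicle replicate 2, stimulated WT replicate 2 or stimulated KO replicate 1. Without the remaining libraries its adjusted p was 0.067 to 0.13.

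**Figure D4:**
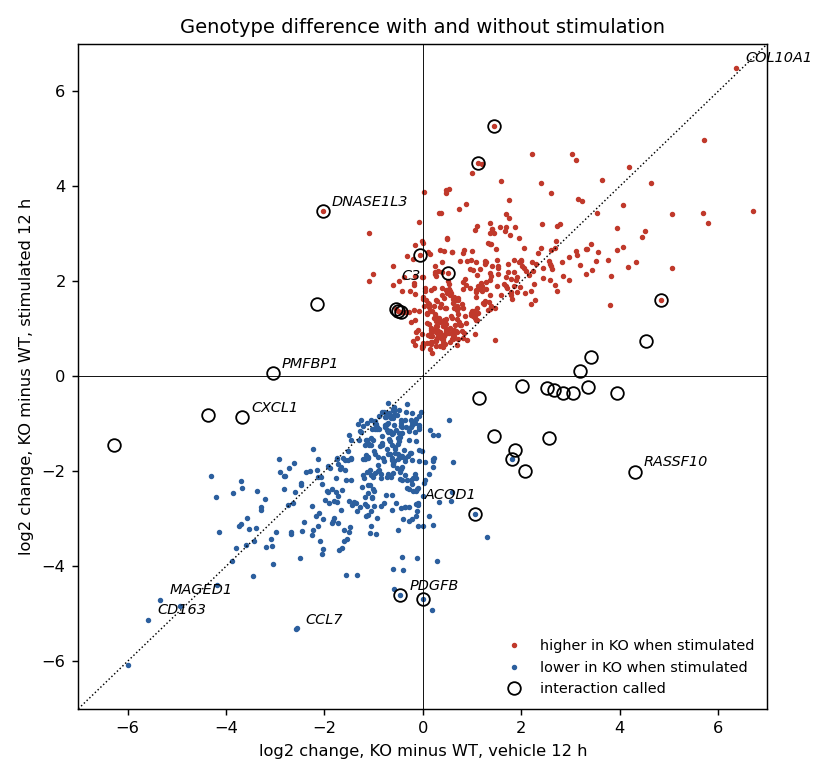
Each point is a gene called in stimulated cells at 12 h, with its log2 change, KO minus WT, under stimulation on the y axis and under vehicle on the x axis, and rings mark the 34 genes whose interaction was called, with or without a call in stimulated cells. Points near the dotted line, such as COL10A1, CD163 and MAGED1, had like changes under both treatments, whereas PDGFB and DNASE1L3 lie away from it.

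Many of the 12 h differences were also called at the neighbouring times. At 6 h 1850 genes (8.71%) were called between stimulated KO and WT cells, 4.86% higher and 3.86% lower, and at 24 h 1247 genes (5.87%), 3.41% higher and 2.46% lower. Each of these comparisons held a library that stood apart from its group. Stimulated KO 6 h replicate 2 had a Pearson r of 0.831 and 0.855 with the others of its group, which had 0.955 between them. Stimulated WT 24 h replicate 3 had 0.887 and 0.86, against 0.943 between the others. Of the 377 genes higher at 12 h 220 (58.4%, or 21.3% of those higher at 6 h) were also called higher at 6 h and 214 (56.8%, or 29.6%) at 24 h. Of the 356 lower genes 193 (54.2%, or 23.6%) were also lower at 6 h and 205 (57.6%, or 39.2%) at 24 h. At all 3 times 125 genes were higher and 122 lower, and 61 and 66 of these were called in the same direction under vehicle too. The genotype change at 12 h differed from that at 6 h for 4 genes (0.0188%), 1 more positive (0.00471%) and 3 more negative (0.0141%), with 1598 at an unadjusted p below 0.05, and from that at 24 h for none by limma (0.0%), with 449 unadjusted. PLCB2, a phospholipase C of haematopoietic cells, was 8.02, 7.82 and 7.43 in KO and 5.41, 6.13 and 5.21 in WT libraries at 12 h (2.18 ± 0.24), against a change of -0.02 at 6 h and 1.28 at 24 h. Its difference from 6 h was 2.20 (adjusted p 0.0087), and 0.072 without WT stimulated 12 h replicate 3.

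The genotype differences were also uneven between chromosomes, a pattern seen after the values were examined. Over 11689 genes with a mean level of at least 5 over all 36 libraries, the median change was 0.06, and by chromosome it ran from -0.33 to 0.20. Chromosome 10 was lowest, with a median of -0.33 over 372 genes of which 75.3% were lower in KO cells, followed by chromosome 17 (-0.18 over 684 genes) and chromosome 6 (-0.17 over 614 genes). The lowest median among the other 20 was -0.03. For chromosome 10, the median deviation of each library from the mean of the 6, relative to that of all genes, was -0.21, -0.20 and -0.17 in KO libraries and 0.20, 0.13 and 0.25 in WT libraries. For chromosome 6 it was -0.14, -0.13 and -0.10 in KO and 0.12, 0.09 and 0.18 in WT libraries, and for chromosome 17 -0.12, -0.10 and -0.14 in KO and 0.16, 0.05 and 0.15 in WT libraries. On these 3 chromosomes every KO library lay below every WT library, as on 5 of 23 chromosomes in all, while on 8 every KO library lay above. The medians were also negative in vehicle-treated cells (-0.48, -0.26 and -0.29 for chromosomes 10, 17 and 6), at 6 h (-0.54, -0.26 and -0.32) and at 24 h (-0.22, -0.10 and -0.13). The median over all genes was -0.01 under vehicle, -0.06 at 6 h and 0.12 at 24 h, and at 6 h chromosome 13 (-0.37) lay below chromosomes 6 and 17.

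Within chromosomes the shift was not uniform. With each chromosome split by gene order into 4 bins of like gene number, chromosome 10 had medians of -0.42, -0.26, -0.32 and -0.38, whereas chromosome 6 had -0.43 in the first bin and -0.17, -0.10 and -0.13 after it, and chromosome 17 had -0.34 in the first bin and -0.16, -0.12 and -0.18 after it. Of all genes tested on a placed chromosome 1.73% were called lower and 1.79% higher. On chromosome 10 these shares were 5.26% lower (38 of 722 genes) and 0.693% higher (5). On chromosome 6 they were 4.99% lower (56 of 1123) and 1.25% higher (14), and on chromosome 17 2.76% lower (33 of 1197) and 1.00% higher (12). On chromosome 1, with a median of 0.20, they were 0.69% lower (15 of 2174) and 2.35% higher (51). The called genes INA and PLAU lie on chromosome 10 and CCL7 and CCL13 on chromosome 17. HLA-DOA, C4A and C4B, called higher in KO cells, lie on chromosome 6. The part of this pattern in single-gene results was not tested.

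**Figure D5:**
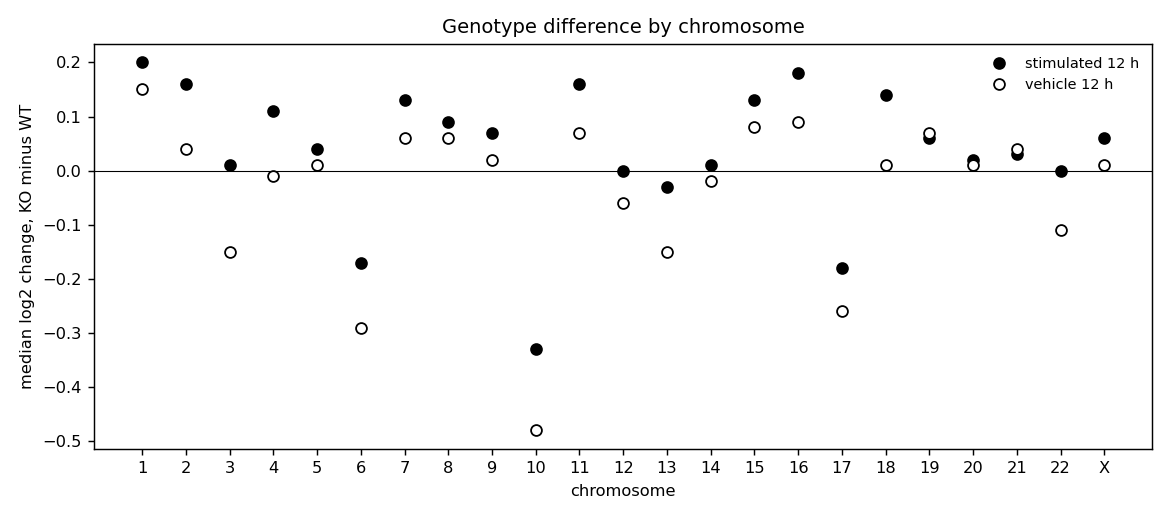
For each chromosome the median log2 change, KO minus WT, of genes with a mean level of at least 5 is shown for cells stimulated for 12 h (filled) and vehicle-treated cells of 12 h (open). Chromosomes 10, 17 and 6 are lowest under both treatments, at -0.33, -0.18 and -0.17 when stimulated and -0.48, -0.26 and -0.29 under vehicle.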

How the data were processed

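RNA was extracted with a column kit and ribosome-depleted libraries were made, per the labels' protocols. GSNAP, version 1.9.1 of cutadapt, and GRCh37.p5 as build are named in the submitters' processing notes. The counting program, annotation, offset and normalization are not given in the sources used here. The authors deposited 1 table of log2 values for 21599 Entrez gene rows, from -0.34 to 16.75. All 36 libraries share the lowest and highest value and have medians of 5.47 to 5.48, so depth is unknown and low and high ends are pressed together. Symbols and chromosome names came from RefSeq GRCh38.p14 by Entrez identifier (20609 rows matched).

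Genes at or above 3.32 (log2 of 10) in at least 3 libraries were fitted with limma 3.58.1 (R 4.3.3) as 12 group means with a variance trend, over all 36 libraries (24 residual degrees of freedom), with no pseudocount added. Tests are two-sided with Benjamini-Hochberg adjustment over 21232 genes and a threshold of 0.05, with no minimum fold. In simulated data for this comparison with 21232 genes, 21 of 100 genes shifted by 1 and 55 of 100 shifted by 2 on the log2 scale were recovered, with 9 false calls. So a gene without a call may well differ. No libraries were duplicates (within-group r 0.921 to 0.969 at 12 h). Deviations of like-numbered KO and WT libraries correlated (r 0.113, 0.325 and 0.334 when stimulated, and 0.108, 0.298 and 0.398 under vehicle). The replicate numbers may therefore pair the samples, which the main fit does not use. A fit with the replicate number as a block was run beside it. Printed errors and p-values come from the fit without this block unless the block is named.

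Named genes are ACOD1, 8 set cytokine and response genes, the 15 largest rises and falls and the 6 largest interactions in each direction among called genes free of overlap between groups (uncharacterized, antisense, pseudogene and small RNA entries left out), up to 4 members per list by size of change, and every called list member. Members, lists and tests were chosen with earlier results of these data known. Alternatives changed the filter, pseudocount, scaling, variance trend, library weights, libraries fitted and replicate block, and left out each library.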

Additional observations from a re-analysis of the deposited data

Results flagged for a closer look

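For 34 genes the genotype change differed between stimulated and vehicle-treated cells at 12 h by the test of the interaction itself, and for 4 it differed between 12 h and 6 h of stimulation. Under the rule for named genes, which left out uncharacterized loci, the most positive interactions were those of DNASE1L3 (5.52), TMCC3 (3.66), PMFBP1 (3.12), CXCL1 (2.81), C4B_2 (1.95) and C4A (1.87). The most negative under that rule were those of RASSF10 (-6.32), CAMK2N1 (-4.29), PDGFB (-4.15), INKA1 (-4.09), BMP4 (-3.97) and SYN3 (-3.86). The uncharacterized lncRNA LOC101929538, left out by it, had an interaction of -4.69 that was also called.

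DNASE1L3, a secreted DNase, was 6.44, 5.69 and 6.26 in KO and 0.76, 4.15 and 3.03 in WT libraries when stimulated, against 0.12, 0.88 and 0.29 in KO and 2.64, 1.82 and 2.94 in WT libraries under vehicle. Its change was called when stimulated (3.48, adjusted p 0.0129) and not under vehicle (-2.03, adjusted p 0.172). RASSF10 had 0.00, 0.00 and 2.35 in KO and 2.61, 3.75 and 2.02 in WT libraries when stimulated, and 5.63, 3.85 and 5.67 in KO and 0.01, 2.20 and 0.00 in WT libraries under vehicle. Its change was called under vehicle (4.31, adjusted p 0.00308) and not when stimulated (-2.01, adjusted p 0.241), where the groups overlapped. BMP4, a growth factor of the TGF-β superfamily, was 1.77, 1.45 and 2.55 in KO and 5.13, 4.32 and 5.04 in WT libraries when stimulated, and 5.24, 2.96 and 4.41 in KO and 2.82, 3.17 and 3.43 in WT libraries under vehicle.

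With only the 12 libraries in the fit, of these interactions only that of TMCC3 was called. PDGFB and PMFBP1 kept the interaction call without each of the 12 libraries. TMCC3 lost it without WT vehicle replicate 1 (adjusted p 0.064) or 3 (0.054) or KO vehicle replicate 1 (0.074), SYN3 without KO vehicle replicate 1 (0.057), stimulated KO replicate 1 (0.051) or WT vehicle replicate 3 (0.073), and C4B_2 without stimulated KO replicate 1 (0.051), WT vehicle replicate 3 (0.054) or KO vehicle replicate 3 (0.075). C4A lost it without those 3 (0.076, 0.065 and 0.10) or WT vehicle replicate 2 (0.053). DNASE1L3, INKA1 and BMP4 kept it only without KO vehicle replicate 2, stimulated WT replicate 2 or 1 stimulated KO library (replicate 2, 1 and 3 in that order of genes), with 0.050 to 0.15 otherwise. CAMK2N1 kept it only without KO vehicle replicate 3 or stimulated WT replicate 2 (0.055 to 0.14 otherwise), and RASSF10 without WT or KO vehicle replicate 2, stimulated WT replicate 2 or 3, or stimulated KO replicate 3 (0.062 to 0.12 otherwise). With a pseudocount of 5 the CAMK2N1 interaction was -2.29 (limma adjusted p 0.0893), against -4.29 without it.

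The 12 h change exceeded that at 6 h for PLCB2 (2.20) and lay below it for GALNT16 (-3.72), RPH3AL (-3.01) and KIF3C (-2.66). The KO minus WT value of GALNT16 was 1.35 at 12 h and 5.07 at 6 h, that of RPH3AL -0.42 and 2.59, and that of KIF3C -0.79 and 1.87. None of the 4 was called with only the libraries compared in the fit (adjusted p 0.93). PLCB2 lost this call without stimulated WT 12 h replicate 3 (0.072). GALNT16 lost it without that library (0.075), WT 6 h replicate 1 (0.063) or 2 (0.054), or KO 6 h replicate 2 (0.095). KIF3C lost it without WT 6 h replicate 1 or 3, KO 6 h replicate 2 or 3, WT 12 h replicate 2 or 3, or KO 12 h replicate 3 (0.050 to 0.095), and RPH3AL without KO 6 h replicate 1 or 2, WT 6 h replicate 2 or 3, WT 12 h replicate 1 or 3, or KO 12 h replicate 3 (0.063 to 0.12).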

How the results depend on the processing

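Of 90 called genes named for stimulated cells at 12 h, none changed direction under any setting run, 22 kept the call under all of them and 39 kept it without each library in turn. The KO and WT values did not overlap for 714 of the 733 called genes. For such genes leaving out a library cannot reverse the direction, so the lack of reversals was largely set by the choice of called genes. The call was lost for 59 of the 90 with only the 6 libraries in the fit and for 10 with the replicate block added to that. The count of 733 called genes became 222 with only genes at or above the median level, 3589 with library weights, 100 with only the 6 libraries in the fit, 1504 with a replicate block, and 247 to 896 without 1 library. The 1112 genes under vehicle became 384, 4492, 663 and 1775 under those settings and 440 to 1140 without 1 library (440 and 616 without KO vehicle replicates 1 and 3, 564 and 636 without those of WT). The 34 interactions became 0, 1117, 3 and 115, 82 with a pseudocount of 5, and 4 to 83 without 1 library. The 4 differences from 6 h became 1, 375, 0 and 9, 38 with the pseudocount, 15 without the variance trend, 0 to 10 without 1 library, and 0 with a replicate block and only the libraries compared, a setting chosen after seeing the data. The 0 differences from 24 h became 6 with the pseudocount, 3 without the trend, 10 with library weights and 0 to 1 without 1 library. The replicate block ended no call of a named gene and other scalings moved counts by less than 1.5 times. The libraries already shared their lowest and highest values and had medians of 5.47 to 5.48, so these scalings could change little. The cause of the shifts in the counts was not tested, except that fewer libraries or genes were fitted where so stated.

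Among values that were not called, TNF changed sign without WT replicate 2 (-0.95 to 0.04 without 1 library), IL10 without WT replicate 1 (-1.05 to 0.15), and CXCL10 with library weights (-0.04) or without KO replicate 2 (-0.03 to 0.17). The list medians of the integrated stress response (-0.29 to 0.04) and apoptosis regulators (-0.18 to 0.02) changed sign without WT replicate 2, and that of precursor markers with library weights (-0.03) or without WT replicate 3 (-0.10 to 0.22). Depth is unknown, so the precision of low levels cannot be given.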
